A study of Rattus norvegicus with 174 samples.

Results

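The integrated stress response genes described here are 10 transcripts that cells raise when they slow protein synthesis under stress: Atf4, Ddit3, Cebpb, Atf5, Ppp1r15a, Trib3, Chac1, Sesn2, Asns and Psat1. They are the genes of a chosen list whose symbol stands alone on at least 1 probe set of the array, and all 10 were found among 13438 genes measured. Trib3 has 3 such probe sets and Sesn2 has 2, and for these the probe set brightest on average over the 174 arrays stood for the gene. Their levels were compared between rats that had inhaled phosphine and rats that had inhaled air.

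In the integrated stress response, a set of kinases that sense different stresses phosphorylate the translation factor eIF2, which lowers protein synthesis in general but favours translation of the Atf4 mRNA. The ATF4 protein then switches on genes of amino acid supply, redox balance and, through CHOP, of cell death. In mammalian tissues the route answers amino acid shortage, misfolded proteins in the endoplasmic reticulum, heme shortage and mitochondrial faults. Phosphine is a fumigant gas that is known to impair mitochondrial respiration. The arrays measured mRNA, so neither the phosphorylation of eIF2 nor the translation of Atf4 was observed.

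Adult male Sprague-Dawley rats, an outbred stock, were exposed over the whole body to 660 ppm phosphine during 32.2 min, which multiplies to 21252 ppm x min and lies just under the median lethal product (LCt50), or breathed air. No other treatment separates the groups, the ages are not given in the labels, and every rat was anaesthetised with ketamine and xylazine before exsanguination. The solid tissues sampled at 1, 3, 6 and 24 h were brain, heart, kidney, liver and lung, from 4 phosphine rats and 4 air rats at each time, except that only 2 air rats stood at 6 h. Blood came from 4 phosphine and 4 air rats at 1 and 3 h, from 5 phosphine rats and 1 air rat at 6 h, and from 2 phosphine rats and no air rat at 24 h. In all, 174 arrays of 33 rats were used. Each rat gave several tissues, except that Rat713 and Rat722 (phosphine, 1 h) and Rat790 (phosphine, 6 h) gave only blood. No rat stood on both sides of a comparison.

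The labelled tissues matched their markers, since the mean log2 signal of the hepatocyte markers had a median of 12.80 in liver, that of the proximal tubule markers 10.45 in kidney, the cardiomyocyte markers 12.55 in heart, the alveolar and airway markers 12.42 in lung, the neuron markers 9.75 in brain and the erythroid markers 12.02 in blood. On 9 arrays of solid tissue, however, the markers of another organ or of skeletal muscle lay at least 4 log2 units above the median of the tissue. They were the phosphine hearts of Rat729 at 3 h and of Rat741 and Rat749 at 24 h, the phosphine lungs of Rat716 at 1 h and Rat729 at 3 h, the phosphine livers of Rat719 at 1 h and Rat741 at 24 h, the air lung of Rat733 at 3 h and the air kidney of Rat720 at 1 h. For the 10 genes, all calls of phosphine against air in heart, kidney and lung were also made without these 9 arrays. No brain array was among them. The other gene lists below were not tested again without these arrays, and the tests between times without them are given in the closing section. Arrays under that cut stayed in. Among others these were the phosphine heart of Rat712 at 1 h (hepatocyte markers 3.81 above the median) and the phosphine liver of Rat730 at 3 h (skeletal muscle markers 3.93 above). The tissues hold many cell types, and fewer cells of a type cannot be told apart from less RNA per cell.

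ATF4 binds, together with a C/EBP partner, to a composite DNA element of the form TGATGNAAN. The RefSeq promoters of all 10 genes (assembly GRCr8, 250 bases before to 50 bases after the start site) were searched for these letters on both strands, in windows of 300 bases. Trib3 and Chac1 each held 1 match and the other 8 genes held none. Over all 33469 promoters of the table, 3.97% held at least 1 match, and 0.0956% held more than 1. The 69 bases around each match are shown because both genes were called in the kidney at 3 h. They are written 5′ to 3′ along the strand of the gene, with the 9 matching bases in capitals; the element runs along the opposite strand in both.
Trib3: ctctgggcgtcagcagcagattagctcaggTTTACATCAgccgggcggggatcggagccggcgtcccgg
Chac1: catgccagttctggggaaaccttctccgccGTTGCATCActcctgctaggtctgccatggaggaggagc
The Trib3 stretch is chr3:161275517-161275585 on the minus strand, and its match spans positions -22 to -14 from the start site. The Chac1 stretch is chr3:126795933-126796001 on the plus strand, and its match spans positions -168 to -160. Read along their own strand, the elements are TGATGTAAA in Trib3 and TGATGCAAC in Chac1. A match of letters does not show binding, and the absence of one says only that these letters are not in the window.

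In air rats the level of each member depended on the tissue. All levels below are log2 signals, set across tissues whose joint normalization is not given in the sources used here, and are described without a test. Psat1, a serine synthesis enzyme, averaged 10.54 ± 0.14 in kidney and 9.94 ± 0.11 in brain, then 6.59 ± 0.30 in lung, 6.24 ± 0.54 in liver, 4.06 ± 0.66 in blood and 3.85 ± 0.44 in heart (SD, n = 14 rats, 9 in blood). Its ranges overlapped only between lung and liver and between blood and heart among neighbours in that order. Asns, which makes asparagine, was highest in blood (9.79 ± 0.36) and stood at 7.86 ± 0.09 in brain and 7.33 ± 0.14 in lung, with no overlap between these neighbours or between lung and liver (5.72 ± 0.42). Kidney followed at 5.55 ± 0.22 and heart at 4.51 ± 0.62, each overlapping the tissue before it.

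Atf4 itself, the central transcription factor, varied least, from 10.25 ± 0.18 in lung over 10.00 ± 0.11 in brain, 9.65 ± 0.10 in heart, 9.57 ± 0.26 in liver and 9.53 ± 0.13 in kidney to 9.07 ± 0.52 in blood, and every pair of neighbours overlapped. Ddit3, which encodes the pro-apoptotic factor CHOP, was highest in heart (8.01 ± 0.24), with no overlap with brain (6.81 ± 0.11), after which kidney (6.79 ± 0.20), blood (6.71 ± 0.44), lung (6.54 ± 0.25) and liver (5.96 ± 0.30) overlapped one another in turn. Atf5, a related factor, was highest in liver (9.75 ± 0.22), clear of heart at 7.55 ± 0.19, and lowest in kidney (6.30 ± 0.16). Cebpb, a C/EBP factor that also serves the acute-phase response, averaged 10.30 ± 0.21 in lung and 10.22 ± 0.33 in liver, which overlapped, against 8.48 ± 0.38 in heart, 8.26 ± 0.33 in kidney, 6.87 ± 0.73 in blood and 6.26 ± 0.20 in brain.

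Ppp1r15a encodes GADD34, the subunit that brings a phosphatase to eIF2 and so ends the response. Its level was highest in blood (8.64 ± 0.89) and heart (7.56 ± 0.15), and heart lay clear of lung (6.62 ± 0.27), kidney (6.05 ± 0.32), brain (5.58 ± 0.22) and liver (5.57 ± 0.42). Sesn2, a stress sensor that restrains mTORC1, was highest in kidney (7.92 ± 0.31) and liver (7.41 ± 0.46) and lowest in heart (5.19 ± 0.31). Trib3, a pseudokinase that binds and restrains ATF4, lay between 5.26 ± 0.42 in liver and 3.39 ± 0.19 in brain, and all its neighbours overlapped. Chac1, which degrades glutathione, had a mean of 6.82 in liver with an SD of 1.33 and a range from 5.04 to 8.97, the widest spread of any member in any tissue of air rats. The SD of Chac1 in brain, at a mean of 6.56, was 0.19.

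**Figure D1:**
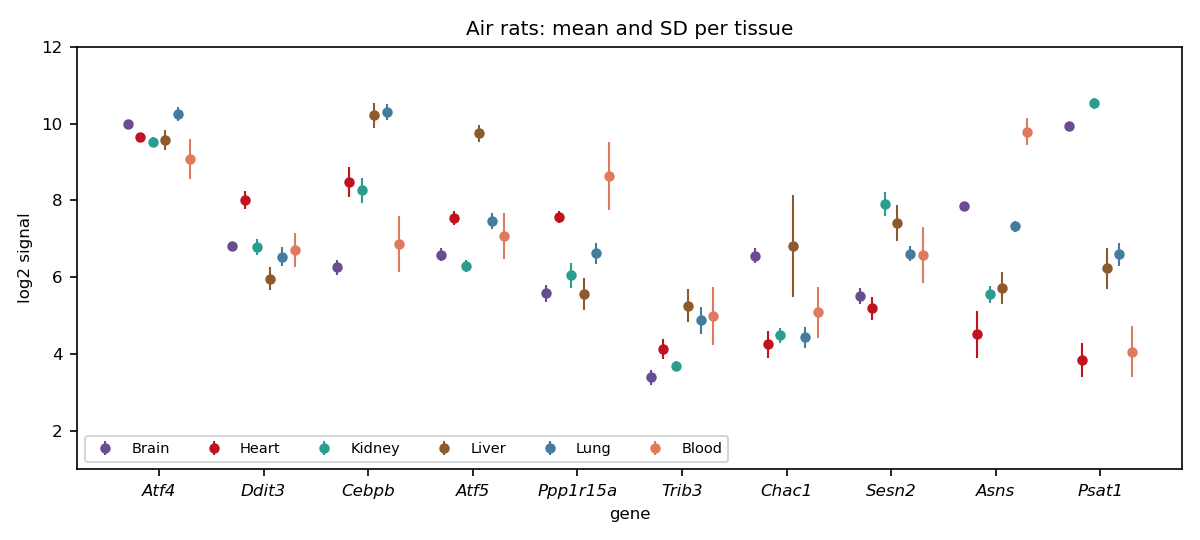
Mean log2 signal of the 10 genes in air rats of each tissue, with the SD as bars (n = 14 rats of all sampled times pooled, 9 in blood). Psat1 and Asns span the widest range over tissues and Atf4 the narrowest, and the bar of Chac1 in liver is the longest.

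Over the 23 comparisons of phosphine with air, 17 of 230 pairs of a member and a comparison passed the threshold of an adjusted p under 0.05 (limma's moderated test with Benjamini-Hochberg adjustment over all 13438 genes, which applies to every adjusted p below). Over all genes and comparisons, 1.92% of 309074 such pairs were called in either direction. All 17 were higher in phosphine rats and 0 were lower. How often a call held is given over runs that changed 1 setting or left out 1 rat of the 2 groups compared. A change is the log2 level in phosphine rats minus that in air rats ± SE, on which 1 is a 2-fold difference. Cebpb rose in 5 comparisons, Atf4 in 4, Ppp1r15a in 3, Ddit3 and Trib3 in 2 each and Chac1 in 1, while Asns, Sesn2, Atf5 and Psat1 were called in none. The calls were made at 1 and 3 h, in kidney, heart, lung and brain.

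**Figure D2:**
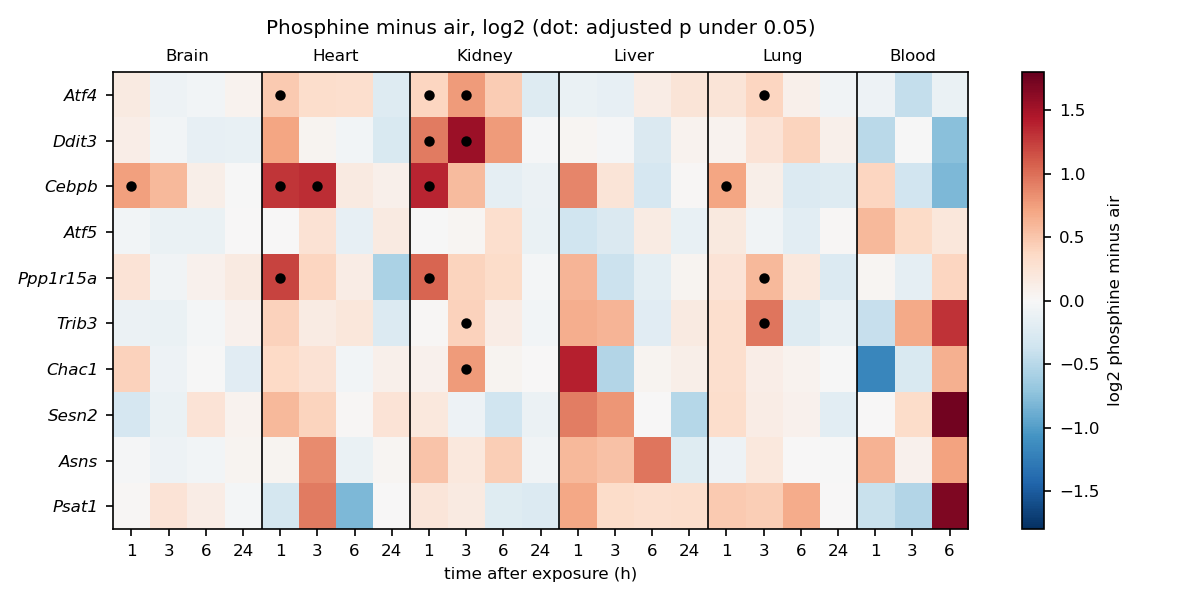
Log2 phosphine minus air for each gene (rows) in each tissue and time (columns, hours after exposure). Black dots mark the 17 calls, 8 of them in the kidney; no dot falls at 6 or 24 h, in liver or in blood.

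The kidney held the most calls. At 1 h, 4 of 10 members rose, where 3.12% of all genes were called in either direction. The members' median change was 0.30, beside 0.00 for all genes, and 9 of 10 changes were positive. Cebpb read 9.46, 9.19, 9.59 and 9.95 in phosphine kidneys, against 8.27, 7.78, 7.96 and 8.70 in air kidneys. Every phosphine kidney was higher than every air kidney, a change of 1.37 ± 0.23 (2.58-fold, adjusted p = 8.93e-04). Ppp1r15a read 6.85, 7.0, 6.89 and 7.15 in phosphine kidneys, against 6.21, 6.18, 5.75 and 5.54 in air kidneys, again without overlap, and rose by 1.05 ± 0.15 (adjusted p = 1.98e-04). Ddit3 read 7.94, 7.76, 7.56 and 7.70 in phosphine kidneys, against 6.99, 7.03, 6.59 and 6.64 in air kidneys. The lowest phosphine value lay above the highest air value, and the change was 0.93 ± 0.14 (adjusted p = 4.43e-04). Atf4 rose by 0.38 ± 0.09 (adjusted p = 0.0144), with 9.88 to 10.23 in phosphine kidneys and 9.43 to 9.79 in air kidneys. That call was lost without phosphine Rat712, which had the highest value, without air Rat726, or with only the groups compared in the fit, where the highest adjusted p was 0.226.

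At 3 h, 4 of 10 members were higher in the kidney, where 6.39% of all genes were called. The median change of the members was 0.41, beside -0.01 for all genes. Ddit3 read 8.44, 8.71, 7.90 and 8.59 in phosphine kidneys, against 7.26, 6.88, 6.60 and 6.75 in air kidneys. Its rise of 1.54 ± 0.14 (2.90-fold, adjusted p = 1.58e-07) was the largest called change of any member, with a gap between the groups of rats. Atf4 read 10.12, 10.44, 10.18 and 10.25 in phosphine kidneys, against 9.63, 9.47, 9.42 and 9.41 in air kidneys, and rose by 0.77 ± 0.09 (adjusted p = 5.17e-06) with no overlap. Chac1 read 5.19, 5.21, 4.74 and 5.32 in phosphine kidneys, against 4.27, 4.43, 4.35 and 4.36 in air kidneys. Its rise of 0.76 ± 0.14 (adjusted p = 0.00152) also left the groups apart.

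Trib3 rose by 0.42 ± 0.11 (adjusted p = 0.0178) in the kidney at 3 h, with 3.87 to 4.13 in phosphine kidneys and 3.49 to 3.70 in air kidneys. The other 2 probe sets of Trib3 changed by 0.33 and 0.54. Trib3 and Chac1 were dim in the kidney, below the 40th percentile of all genes, and were not tested where dim genes were left out. Both calls were lost where all solid tissues shared an estimate of the spread (adjusted p up to 0.459 for Trib3 and 0.445 for Chac1), and that of Trib3 also without phosphine Rat731, air Rat738 or air Rat739. Ppp1r15a (0.40 ± 0.15, adjusted p = 0.124) and Cebpb (0.57 ± 0.23, adjusted p = 0.150), both called at 1 h, did not pass the threshold at 3 h.

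No member was called in the kidney at 6 h (0.35% of all genes) or at 24 h (0% of all genes, with 5.5% of genes and 2 members at an unadjusted p under 0.05 in limma). At 6 h Ddit3 read 7.32, 7.52, 7.20 and 7.50 in phosphine kidneys, against 6.70 and 6.55 in air kidneys, and Atf4 read 9.67, 9.85, 9.92 and 9.98 in phosphine kidneys, against 9.46 and 9.33 in air kidneys. Neither gene overlapped between the groups, and their changes of 0.76 ± 0.18 and 0.46 ± 0.11 had adjusted p = 0.0556 and 0.0584. With only 2 air rats at 6 h, groups separate easily in either direction. The share of all genes without overlap was not counted. Ddit3 was called in 4 and Atf4 in 6 of 17 alternative runs. Sesn2 and Psat1 lay lower without overlap at 6 h, Sesn2 at 7.20 to 7.52 in phosphine kidneys and 7.71 to 7.73 in air kidneys (-0.36 ± 0.16, adjusted p = 0.453), and Psat1 at 10.39 to 10.60 in phosphine kidneys and 10.67 to 10.81 in air kidneys (-0.21 ± 0.11, adjusted p = 0.505). With the air rats of all times pooled, Sesn2 was called lower (-0.55, adjusted p = 0.00608). That pool also holds air kidneys of other times. They read 7.24 to 8.29 at 1 h, 7.70 to 7.98 at 3 h and 8.20 to 8.31 at 24 h. At 24 h Atf4 read 9.31, 9.30, 9.36 and 9.38 in phosphine kidneys, all below the 9.54, 9.59, 9.55 and 9.59 of air kidneys, a difference of -0.23 ± 0.09 that did not pass (adjusted p = 0.865).

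**Figure D3:**
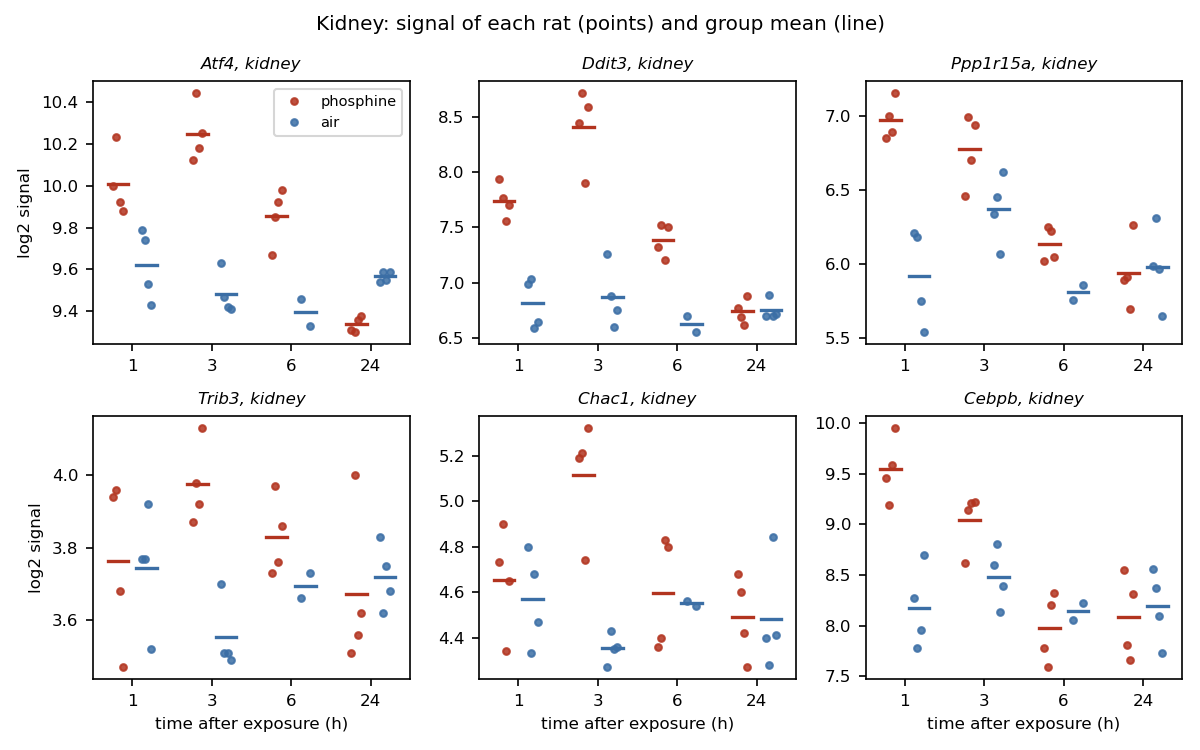
Log2 signal in the kidney of each rat (points) with the mean of each group (line), phosphine beside air at 1, 3, 6 and 24 h after exposure. Ddit3 and Atf4 stand highest above air at 3 h (changes of 1.54 and 0.77), whereas Cebpb and Ppp1r15a stand highest at 1 h (1.37 and 1.05).

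The response differed between the 4 times in the kidney for 4 members (limma's moderated F test of the differences, called for 1.75% of all genes). Atf4 changed by 0.38, 0.77, 0.46 and -0.23 at 1, 3, 6 and 24 h (adjusted p = 2.04e-04), and Ddit3 by 0.93, 1.54, 0.76 and -0.01 (adjusted p = 6.08e-04). Cebpb changed by 1.37, 0.57, -0.16 and -0.11 over the same times (adjusted p = 0.0265), and Ppp1r15a by 1.05, 0.40, 0.32 and -0.04 (adjusted p = 0.0334). The estimates of Atf4 and Ddit3 were thus largest at 3 h and those of Cebpb and Ppp1r15a at 1 h. Chac1 (adjusted p = 0.0845) and Psat1 (adjusted p = 0.0524) did not pass. Without phosphine Rat719, air Rat726, air Rat745 or air Rat763 the count of 4 fell to 2.

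Of all genes, 6.39% were called in the kidney at 3 h and 3.12% at 1 h. Among cell type markers, 2 of 8 measured macrophage markers were higher in phosphine kidneys at 3 h and 0 were lower. The mean signal of that list was 6.02 to 6.28 in phosphine kidneys and 5.66 to 6.13 in air kidneys. At 1 h, 0 of 8 macrophage markers were called, with 5.90 to 6.39 in phosphine kidneys and 5.81 to 6.18 in air kidneys. Of 6 neutrophil markers 1 was higher at 3 h, at 2.91 to 3.03 in phosphine kidneys and 2.71 to 2.82 in air kidneys. Of 7 distal nephron markers 1 was lower at 3 h, at 9.80 to 10.05 in phosphine kidneys and 10.07 to 10.24 in air kidneys. At 3 h 1 of 8 endothelial markers (7.19 to 7.32 in phosphine kidneys, 7.02 to 7.31 in air kidneys) and 1 of 5 skeletal muscle markers (2.85 to 3.00 in phosphine kidneys, 2.79 to 2.99 in air kidneys) were higher, and at 1 h 1 of 8 T and NK lymphocyte markers was lower (3.28 to 3.64 in phosphine kidneys, 3.45 to 3.72 in air kidneys). The neutrophil and skeletal muscle lists were dim in kidney, with a median of 2.89 each beside 2.67 for the neuron markers. The part of cells with these markers in the kidney result was not tested.

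In the heart at 1 h, 3 of 10 members rose, where 1.33% of all genes were called. The median change of the members was 0.45, beside 0.00 for all genes. Cebpb read 9.83, 10.26, 9.91 and 10.54 in phosphine hearts, against 9.14, 8.68, 8.58 and 9.01 in air hearts. All phosphine values were the higher ones, with a change of 1.28 ± 0.28 (adjusted p = 0.0192). Ppp1r15a read 8.38, 9.11, 8.79 and 9.33 in phosphine hearts, against 7.75, 7.60, 7.86 and 7.51 in air hearts, and rose by 1.22 ± 0.24 (adjusted p = 0.00612) with no overlap. Atf4 read 10.07, 10.42, 9.97 and 10.40 in phosphine hearts, against 9.78, 9.83, 9.71 and 9.62 in air hearts. The groups did not overlap, and the change was 0.48 ± 0.12 (adjusted p = 0.0442).

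The Atf4 call in the heart at 1 h was lost in 9 of 19 alternative runs, namely after quantile normalization or median centring, with only the groups compared in the fit, and without Rat712, Rat719, Rat720, Rat721, Rat726 or Rat727, with an adjusted p of up to 0.234. It was also lost without 11 of 22 rats of the other times, which entered the same fit (adjusted p up to 0.0566). The Cebpb call was lost without Rat712, Rat719, Rat721 or Rat726 (adjusted p up to 0.0978), while that of Ppp1r15a held in all 19 runs. Ddit3 read 8.58, 9.07, 8.21 and 9.37 in phosphine hearts, against 8.21, 8.33, 8.22 and 7.62 in air hearts, and its change of 0.71 ± 0.21 did not pass (adjusted p = 0.114). It was called in 6 of 19 alternative runs, among them that without the arrays with markers of another organ (adjusted p = 0.0454). At this time, where 1.33% of all genes were called, 2 of 8 endothelial markers were higher and 0 lower. Their mean signal was 7.88 to 7.96 in phosphine hearts and 7.56 to 7.83 in air hearts. Their part in the result was not tested.

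At 3 h only Cebpb was called in the heart, where 3.33% of all genes were called. It read 9.41, 9.53, 9.81 and 9.51 in phosphine hearts, against 8.48, 8.30, 8.20 and 7.98 in air hearts, a rise of 1.32 ± 0.28 (adjusted p = 0.00891) without overlap that held in all 19 runs. The heart of phosphine Rat729, whose hepatocyte markers stood 8.26 log2 units above the median heart, also had the highest Trib3 (5.07), Sesn2 (6.67), Atf5 (8.73) and Psat1 (5.69) of its group. Without the arrays that carried markers of another organ the Cebpb change was 1.34, and that of Psat1 was 0.63 in place of 0.94. That of Ppp1r15a was 0.68 in place of 0.38, and that of Ddit3 0.28 in place of 0.04 (no value of these 3 genes passed). Of 8 macrophage markers 4 were higher in phosphine hearts at 3 h and 0 lower, with a mean signal of 6.89 to 7.70 in phosphine hearts and 6.59 to 6.83 in air hearts, while 1 of 8 endothelial markers (7.35 to 7.87 in phosphine hearts, 7.73 to 7.90 in air hearts) and 1 of 8 neuron markers (3.07 to 3.65 in phosphine hearts, 3.10 to 3.49 in air hearts) were lower. Their part in the Cebpb result was not tested.

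No member was called in the heart at 6 h (0.35% of all genes) or 24 h (0.0819% of all genes). At 24 h Ppp1r15a read 6.56, 7.14, 7.06 and 7.18 in phosphine hearts, against 7.38, 7.52, 7.70 and 7.62 in air hearts. Every phosphine value was lower there, and the change of -0.58 ± 0.24 did not pass (adjusted p = 0.533). The lowest value was that of Rat741, whose heart, like that of Rat749, carried markers of another organ, and without these 2 hearts the change was -0.46 (adjusted p = 0.635). The response of Ppp1r15a differed between times (1.22, 0.38, 0.13 and -0.58 at 1, 3, 6 and 24 h, adjusted p = 0.0496), where 0.424% of all genes did. This call lay just under the threshold: leaving out each of the 30 rats in turn gave between 0 and 1 member, and it was lost without every 1 h rat except Rat710, among others.

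In the lung at 1 h, 1 of 10 members was called, where 5.8% of all genes were. Cebpb read 10.94, 10.83, 10.84 and 11.43 in phosphine lungs, against 10.34, 9.83, 10.38 and 10.64 in air lungs. The highest air value lay below all phosphine values, and the change was 0.71 ± 0.16 (adjusted p = 0.00601). It was lost only where the fit held no other times (adjusted p = 0.139). The phosphine lung of Rat716 at 1 h carried hepatocyte markers 7.81 log2 units above the median lung, and its Atf5 of 8.19 stood above the 7.42 to 7.49 of the other phosphine lungs. Of 6 neutrophil markers 1 was higher at 1 h, with a mean signal of 5.42 to 6.09 in phosphine lungs and 4.86 to 5.40 in air lungs. Of 3 erythroid markers 1 was higher (5.86 to 6.45 in phosphine lungs, 5.27 to 6.04 in air lungs), and of 3 B lymphocyte markers 1 was lower (5.49 to 6.24 in phosphine lungs, 6.13 to 6.71 in air lungs). Of 8 endothelial markers 2 were higher and 2 lower (9.18 to 9.48 in phosphine lungs, 9.32 to 9.41 in air lungs), and of 7 alveolar and airway markers 1 was lower (12.33 to 12.52 in phosphine lungs, 12.43 to 12.57 in air lungs). Their part in the Cebpb result was not tested.

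At 3 h, 3 of 10 members rose in the lung, where 11.6% of all genes were called in either direction. The median change of the members was 0.22, beside 0.01 for all genes. Trib3 read 4.92, 5.54, 6.23 and 5.94 in phosphine lungs, against 4.40, 4.78, 4.69 and 4.89 in air lungs. The groups met closely but did not overlap, and the change was 0.97 ± 0.24 (adjusted p = 0.00992). In lung too Trib3 was dim, at percentile 36.1 of all genes in air rats, and was not tested where dim genes were left out. The other 2 probe sets of Trib3 changed by 0.46 and 0.45, and the call was lost without phosphine Rat730 (adjusted p = 0.0581), which had the highest value. Ppp1r15a read 7.02, 6.91, 7.04 and 7.03 in phosphine lungs, against 6.61, 6.15, 6.46 and 6.44 in air lungs, and rose by 0.58 ± 0.14 (adjusted p = 0.00591) with no overlap. Atf4 read 10.46, 10.41, 10.60 and 10.45 in phosphine lungs, against 10.21, 9.99, 10.13 and 10.04 in air lungs. All phosphine values were the higher, and the change was 0.39 ± 0.08 (adjusted p = 0.00279), a call lost with the air rats of all times pooled (adjusted p = 0.0917).

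Markers of other cells also moved in the lung at 3 h, where 11.6% of all genes were called. Of 6 neutrophil markers 3 were higher and 0 lower, and the mean signal of the list was 5.65 to 6.13 in phosphine lungs and 4.76 to 5.33 in air lungs. Of 8 macrophage markers 5 were higher and 1 was lower, at 7.27 to 7.39 in phosphine lungs and 6.91 to 7.24 in air lungs. Of 3 B lymphocyte markers 1 was lower, at 4.70 to 6.00 in phosphine lungs and 5.77 to 6.57 in air lungs. Of 8 T and NK lymphocyte markers 3 were lower, at 5.49 to 5.94 in phosphine lungs and 5.89 to 6.40 in air lungs. Of 8 endothelial markers 1 was higher and 2 were lower (9.10 to 9.46 in phosphine lungs, 9.32 to 9.46 in air lungs), and of 7 alveolar and airway markers 2 were higher (12.42 to 12.53 in phosphine lungs, 12.11 to 12.47 in air lungs). The part of these cells in the changes of Atf4, Trib3 and Ppp1r15a was not tested.

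Psat1 was not called in the lung, yet its estimate was positive at 1 h (0.47 ± 0.15, adjusted p = 0.0634), 3 h (0.44 ± 0.15, adjusted p = 0.0559) and 6 h (0.67 ± 0.18, adjusted p = 0.156). At 3 h it read 7.28, 7.55, 6.95 and 7.23 in phosphine lungs, against 7.05, 6.92, 6.71 and 6.59 in air lungs, with 1 phosphine lung inside the range of air. No member was called at 6 h (0.0967% of all genes) or 24 h (0.00744% of all genes). Between times the response differed for Cebpb (0.71, 0.11, -0.24 and -0.24 at 1, 3, 6 and 24 h, adjusted p = 0.0238) and for Ppp1r15a (0.25, 0.58, 0.19 and -0.25, adjusted p = 0.0448), where 6.38% of all genes did. That count of 2 was 1 in the runs without Rat719, Rat721, Rat726, Rat727, Rat729, Rat730, Rat731, Rat733, Rat738, Rat739, Rat741, Rat742, Rat748, Rat749, Rat750, Rat751 or Rat789, each left out alone.

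In the brain at 1 h, Cebpb alone was called, where 0.149% of all genes were. It read 6.77, 6.94, 7.09 and 7.42 in phosphine brains, against 6.45, 6.35, 6.33 and 6.17 in air brains. No values overlapped, and the change was 0.73 ± 0.15 (1.66-fold, adjusted p = 0.0390). The call was lost in 9 of 18 alternative runs, among them those without Rat712, Rat716, Rat719, Rat721, Rat726 or Rat727 (adjusted p up to 0.218), and also without Rat729, Rat731 or Rat742 of other times (adjusted p up to 0.0522). The estimate ranged from 0.61 to 0.83 over all 18. At 3 h the change was 0.58 ± 0.15 and did not pass (adjusted p = 0.113), and 0 members were called among 0.506% of all genes. None was called at 6 h or at 24 h, where 0% of all genes were called at either time (limma gave 5.64% of genes an unadjusted p under 0.05 at 6 h and 3.79% at 24 h, no member among them). The other 9 members changed by no more than 0.41 (Chac1 at 1 h, adjusted p = 0.302) in any brain comparison, and 0.0893% of all genes, none of them a member, differed in response between times.

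**Figure D4:**
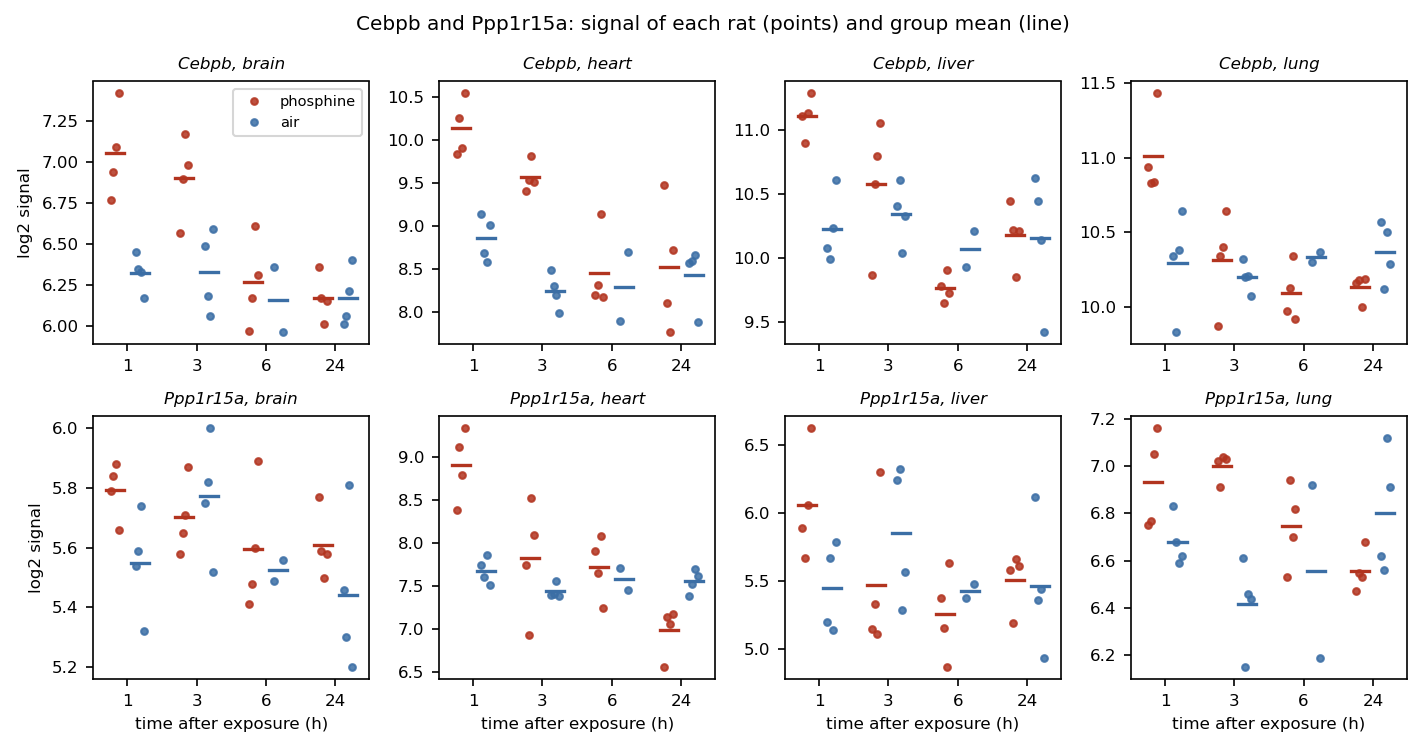
Log2 signal of Cebpb (top) and Ppp1r15a (bottom) in brain, heart, liver and lung of each rat (points), with the mean of each group (line), phosphine beside air at 1, 3, 6 and 24 h after exposure. Cebpb lies above air in every phosphine rat of these tissues at 1 h, where the liver difference alone was not called (adjusted p = 0.102), and Ppp1r15a stands apart in heart at 1 h and in lung at 3 h.

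The liver gave 0 calls at 1 h (0.335% of all genes), 3 h (3.85%), 6 h (0.223%) or 24 h (0%, with 7.14% of genes and 0 members at an unadjusted p under 0.05 in limma). Its estimates at 1 h were nevertheless mostly positive, with 8 of 10 above 0 and a median of 0.63, beside -0.01 for all genes, and 6 members had an unadjusted p under 0.05, which 6.76% of all genes had. Sesn2 read 8.28, 8.22, 8.21 and 8.53 in phosphine livers at 1 h, against 7.03, 6.74, 7.72 and 8.05 in air livers. The groups did not overlap, and the change of 0.92 ± 0.25 did not pass (adjusted p = 0.160). It was called without air Rat727, and a second, dimmer probe set of Sesn2 changed by -0.23 in that comparison. Cebpb read 11.11, 10.90, 11.14 and 11.29 in phosphine livers, against 10.08, 9.99, 10.24 and 10.61 in air livers, and its change of 0.88 ± 0.22 missed the threshold (adjusted p = 0.102) despite the gap. Atf5 was lower without overlap, at 9.24 to 9.69 in phosphine livers and 9.72 to 9.91 in air livers (-0.36 ± 0.13, adjusted p = 0.439).

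Chac1 had the largest estimate in the liver at 1 h, 1.40 ± 0.76 (adjusted p = 0.832). It read 7.13, 6.43, 6.10 and 8.64 in phosphine livers, against 5.67, 6.38, 5.04 and 5.60 in air livers, and 5.51, 7.19, 9.47 and 8.07 in phosphine livers at 3 h, against 8.97, 8.61, 7.33 and 7.44 in air livers. The 8.64 was that of Rat719, whose liver carried skeletal muscle markers 5.56 log2 units above the median liver, and without it the 1 h estimate was 0.88. Over 19 alternative runs that estimate ranged from 0.25 to 1.73. Phosphine livers thus ranged from 6.10 to 8.64 at 1 h and from 5.51 to 9.47 at 3 h. Every air liver at 3 h read higher than every air liver at 1 h. Asns at 6 h read 6.54, 6.30, 5.76 and 5.38 in phosphine livers, against 5.15 and 4.92 in air livers, a change of 0.96 ± 0.30 (adjusted p = 0.235). Atf4 and Ddit3 changed by between -0.26 and 0.23 over the 4 times in liver, none of it called. At 3 h Sesn2 changed by 0.80 ± 0.25 (adjusted p = 0.0827), with no overlap between 7.66 to 8.50 in phosphine livers and 6.65 to 7.64 in air livers, and it was called without phosphine Rat728. In between-time tests, 0.476% of all genes but no member differed.

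RNA integrity, taken as the 3′ minus 5′ log2 signal of control transcripts (higher in less intact RNA), differed in the liver at 3 h, at 0.494 to 0.682 in phosphine livers and 0.382 to 0.455 in air livers. Its part in the liver values was not tested.

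**Figure D5:**
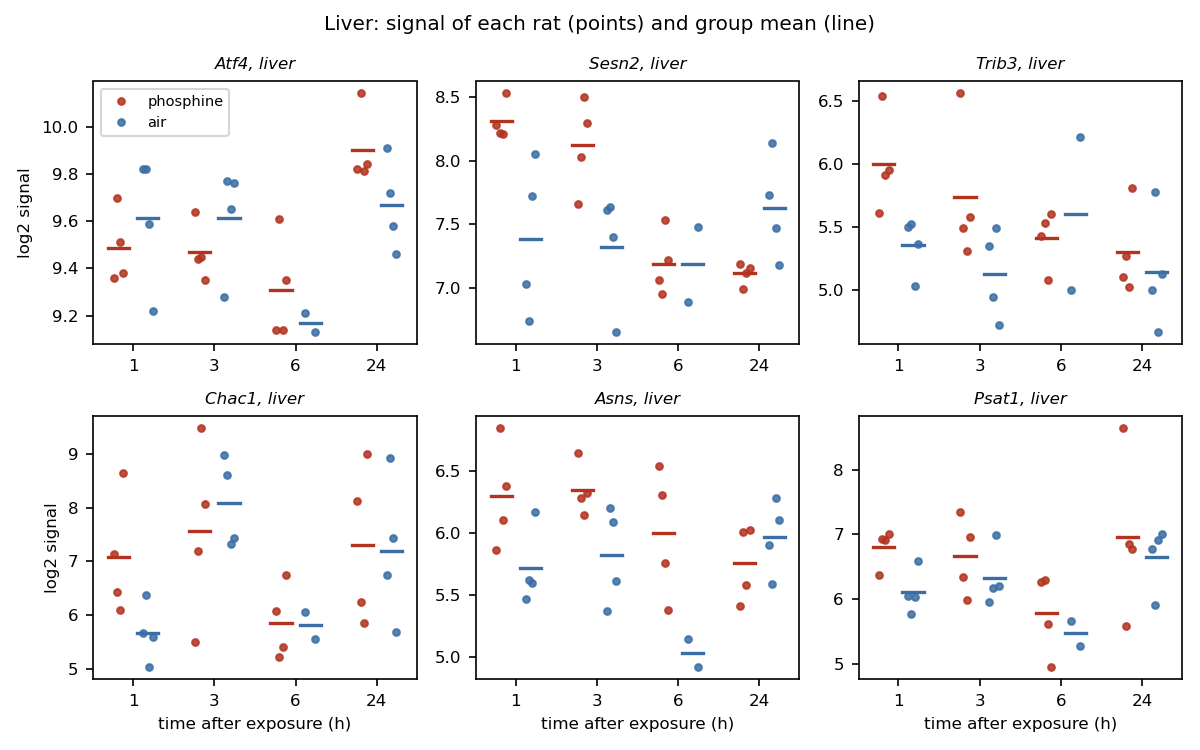
Log2 signal in the liver of each rat (points) with the mean of each group (line), phosphine beside air at 1, 3, 6 and 24 h after exposure, for Atf4 and 5 genes that ATF4 is known to regulate. Sesn2 at 1 and 3 h lies above air in all phosphine rats without being called (adjusted p = 0.160 and 0.0827), and Chac1 spreads over several log2 units in both groups.

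In blood 0 of 10 members were called at 1 h (0.00744% of all genes), 3 h (6.6%) or 6 h (0.0521%). Asns read 10.28, 10.24, 10.47 and 10.32 in phosphine blood at 1 h, against 9.75, 9.85, 9.42 and 9.76 in air blood. The groups did not overlap, and the change was 0.63 ± 0.22 (adjusted p = 0.449). At 6 h Sesn2 read 6.72, 6.36, 6.55, 6.51 and 6.98 in phosphine blood, against 4.89 in the 1 air sample, and Psat1 read 4.49, 4.97, 4.77, 4.63 and 4.08, against 2.91 in that sample. Their changes of 1.74 ± 0.45 (adjusted p = 0.123) and 1.68 ± 0.49 (adjusted p = 0.186) rest on a single air rat, whose spread is taken from the other groups. The 2 phosphine samples at 24 h, for which no air blood was used here, read 9.30 and 9.23 for Atf4, 7.45 and 6.49 for Ddit3, and 6.22 and 7.21 for Sesn2. At 3 h 3 of 3 B lymphocyte markers were lower, at 6.45 to 7.71 in phosphine blood and 8.20 to 9.22 in air blood, as was 1 of 8 T and NK lymphocyte markers (7.18 to 7.72 in phosphine blood, 7.99 to 8.37 in air blood), and 2 of 7 proximal tubule markers were higher (4.59 to 5.30 in phosphine blood, 3.93 to 4.80 in air blood). Their part in the blood values at 3 h, here and in the lists below, was not tested. The response of no member differed between times in blood, where that of 0.268% of all genes did.

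Whether the response differed between the 5 solid tissues was tested at each time with 1 fit of all solid-tissue arrays. At 1 h it differed for 4 of 10 members, where 3.27% of all genes did. Ddit3 changed by 0.12 in brain, 0.71 in heart, 0.93 in kidney, 0.04 in liver and 0.06 in lung (adjusted p = 0.0188). Ppp1r15a changed by 0.25, 1.22, 1.05, 0.61 and 0.25 in the same order (adjusted p = 0.0356), and Atf4 by 0.16, 0.48, 0.38, -0.13 and 0.23 (adjusted p = 0.0367). Heart and kidney thus had the largest estimates of all 3. Sesn2 changed by -0.30 in brain, 0.58 in heart, 0.19 in kidney, 0.92 in liver and 0.31 in lung (adjusted p = 0.0330), so that liver led instead. Cebpb, positive in all 5 tissues (0.73, 1.28, 1.37, 0.88 and 0.71), did not differ beyond the threshold (adjusted p = 0.489). The 1 h count of 4 fell to 2 without Rat710 or Rat727, to 1 without Rat720, Rat721 or Rat726 and to 0 without Rat712 or Rat719.

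At 3 h the response differed between tissues for 4 members, where 14.4% of all genes did. Ddit3 changed by -0.04 in brain, 0.04 in heart, 1.54 in kidney, -0.02 in liver and 0.25 in lung (adjusted p = 2.92e-07). Atf4 changed by -0.10, 0.31, 0.77, -0.15 and 0.39 in the same order (adjusted p = 1.20e-06). For both genes the kidney estimate was the largest. Cebpb changed by 0.58, 1.32, 0.57, 0.23 and 0.11 (adjusted p = 0.0198), with heart highest, and Ppp1r15a by -0.07, 0.38, 0.40, -0.38 and 0.58 (adjusted p = 0.0403). With the rat as a replicate block, Trib3 (adjusted p = 0.0492) and Sesn2 (adjusted p = 0.0495) were called too, 6 members in all. Without Rat730 or Rat733 the count of 4 fell to 2. At 6 h (1.35% of all genes) and 24 h (0.625% of all genes) no member differed.

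The changes of Atf4 and Ddit3 over the 20 solid-tissue comparisons correlated best among the members (Pearson's r = 0.78), as a description, since these comparisons share rats within a time and each array pair shares its platform. Over all 45 pairs of members r had a median of 0.26 and ran from -0.29 (Sesn2 with Atf5) to 0.78, with 36 pairs positive. Atf5 moved least, with an SD of 0.17 over the 20 changes, and Cebpb most, with an SD of 0.54. Among 2011 genes whose changes had an SD of at least 0.3, the closest to Atf4 were Ifitm10 (r = 0.81), Pim1 (0.77) and Gdf15 (0.77), a secreted stress hormone. Closest to Ddit3 were Cldn4 (r = 0.83), LOC100912629 (0.79) and Dnajb3 (0.78). For Cebpb they were Srsf5 (r = 0.85), Atf3 (0.85) and Irf7 (0.82).

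Ppp1r15a was most like Nr4a1 (r = 0.87), F3 (0.82), which encodes tissue factor, and Csrnp1 (0.82). Sesn2 was most like Noct (r = 0.91), Coq10b (0.83) and Enc1 (0.78). The likeness was lower for Trib3 with Sgms1 (r = 0.81), H2-Q7-ps1 (0.79) and Nedd4l (0.77), Psat1 with Cdo1 (0.81), Cidec (0.80) and Thrsp (0.76), and Asns with Irak3 (0.76), Edem1 (0.71) and Tor3a (0.68). Atf5 was closest to Nr1h4 (0.75), Asgr2 (0.70) and Slc26a1 (0.68), and Chac1 to Mlf1 (0.66), Trib1 (0.65) and Igfbp1 (0.65).

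Other stress genes that ATF4 and CHOP are known to regulate were measured for 16 of 18 listed. In the kidney 4 rose at 1 h, 3 at 3 h and 2 at 6 h, and 0 fell, where 3.12%, 6.39% and 0.35% of all genes were called. Atf3, a transcription factor of the same response, was higher by 3.96 ± 0.34 at 1 h (adjusted p = 1.07e-07), and Gdf15 by 2.39 ± 0.23 at 1 h (adjusted p = 2.65e-07), 1.72 ± 0.23 at 3 h (adjusted p = 3.05e-05) and 2.07 ± 0.28 at 6 h (adjusted p = 3.14e-04). Gadd45a, a growth arrest gene, rose by 0.72 ± 0.09 at 1 h (adjusted p = 2.51e-05). Herpud1, of endoplasmic reticulum degradation, rose by 0.59 ± 0.12 at 1 h (adjusted p = 0.00498) and 0.47 ± 0.12 at 3 h (adjusted p = 0.0144). Sqstm1, an autophagy receptor, rose by 0.40 ± 0.09 at 3 h (adjusted p = 0.00658) and 0.60 ± 0.11 at 6 h (adjusted p = 0.00952).

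In the heart 2 of the 16 rose at 1 h and 1 at 3 h, beside 1.33% and 3.33% of all genes. Atf3 was higher by 4.16 ± 0.57 at 1 h (adjusted p = 3.09e-04) and 4.43 ± 0.57 at 3 h (adjusted p = 1.36e-04), and Gdf15 by 2.19 ± 0.51 at 1 h (adjusted p = 0.0285). In the lung 2 of the 16 rose at 1 h, where 5.8% of all genes were called, Atf3 by 1.87 ± 0.49 (adjusted p = 0.0199) and Herpud1 by 0.62 ± 0.10 (adjusted p = 1.63e-04). Herpud1 also rose at 3 h (0.37 ± 0.10, adjusted p = 0.0137). At 3 h in the lung 6 rose and 1 fell (11.6% of all genes), among them Nupr1 (1.04 ± 0.24, adjusted p = 0.00448), a chromatin-bound stress protein, and Eif4ebp1 (0.54 ± 0.11, adjusted p = 0.00198), a translation repressor, while the receptor gene Vldlr fell by 0.63 (SE 0.13, adjusted p = 0.00133). In the liver at 3 h (3.85% of all genes) Sqstm1 fell by 0.63 (SE 0.12, adjusted p = 0.00251), and no gene of the list rose in liver at any time. None was called in brain or blood, or at 24 h in any tissue.

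Of 19 measured ATF4 target enzymes and transporters of amino acids, between 0 and 3 were called higher in a comparison. The most, 3 each, were in kidney and lung at 3 h, where 6.39% and 11.6% of all genes were called. Heart held 2 at 1 h and 2 at 3 h (1.33% and 3.33% of all genes), and lung 2 at 1 h (5.8%). Kidney held 1 at 1 h and 1 at 6 h (3.12% and 0.35%). Liver held 1, 1 and 2 at 1, 3 and 6 h (0.335%, 3.85% and 0.223%). The arginine transporter Slc7a1 rose in heart at 1 h (1.16 ± 0.27, adjusted p = 0.0285) and 3 h (1.04 ± 0.27, adjusted p = 0.0321), in kidney at 1 h (0.82 ± 0.15, adjusted p = 0.00174) and 3 h (0.83 ± 0.15, adjusted p = 9.04e-04), and in lung at 1 h (1.36 ± 0.15, adjusted p = 3.23e-06) and 3 h (0.67 ± 0.15, adjusted p = 0.00487). Slc7a5, a transporter of large neutral amino acids, rose in heart at 1 h (1.07 ± 0.23, adjusted p = 0.0187), in kidney at 3 h (0.76 ± 0.21, adjusted p = 0.0293) and in lung at 1 h (0.69 ± 0.15, adjusted p = 0.00555) and 3 h (0.56 ± 0.15, adjusted p = 0.0181). Its partner Slc3a2 rose in heart at 3 h (0.72 ± 0.13, adjusted p = 0.00261) and in liver at 6 h (0.65 ± 0.13, adjusted p = 0.0292), and Slc43a1, another neutral amino acid transporter, in lung at 3 h (0.81 ± 0.20, adjusted p = 0.0105).

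Got1, the cytosolic aspartate aminotransferase, was higher in liver by 0.81 ± 0.18 at 1 h (adjusted p = 0.0438), 1.52 ± 0.18 at 3 h (adjusted p = 1.44e-05) and 1.46 ± 0.22 at 6 h (adjusted p = 0.00790). It also rose in kidney, by 0.23 ± 0.07 at 3 h (adjusted p = 0.0383) and 0.38 ± 0.08 at 6 h (adjusted p = 0.0341). Members of the same list fell as well. The glutamine transporters Slc38a2 in heart at 3 h and Slc1a5 in kidney at 1 h fell by 0.70 (SE 0.16, adjusted p = 0.0169) and 0.41 (SE 0.11, adjusted p = 0.0375). In blood at 3 h, where 6.6% of all genes were called and most of these were lower, Shmt2 and Aldh18a1, of one-carbon and proline synthesis, fell by 1.34 (SE 0.32, adjusted p = 0.0178) and 1.22 (SE 0.36, adjusted p = 0.0453). The serine synthesis genes Phgdh and Psph were measured and called in no comparison.

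The aminoacyl-tRNA synthetases, which charge tRNAs and belong to the known ATF4 program, were measured for 13 of 14 listed. In the lung 1 rose at 1 h (5.8% of all genes), Cars1 (0.35 ± 0.08, adjusted p = 0.00497), and 5 rose at 3 h (11.6% of all genes), led by Nars1 (0.37 ± 0.08, adjusted p = 0.00185), Cars1 (0.33 ± 0.08, adjusted p = 0.00526) and Yars1 (0.28 ± 0.07, adjusted p = 0.0134). In the kidney Nars1 rose at 3 h (0.29 ± 0.07, adjusted p = 0.00803) and 6 h (0.43 ± 0.08, adjusted p = 0.0134), and Sars1 at 6 h (0.43 ± 0.08, adjusted p = 0.00838), where 6.39% and 0.35% of all genes were called at 3 and 6 h. None of the 13 was called in brain, heart or liver. In blood Iars1 fell by 1.27 at 3 h (SE 0.26, adjusted p = 0.00937), where 6.6% of all genes were called.

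Upstream, 17 of 19 listed genes of the eIF2 kinases, of eIF2 and of its regulators were measured. No solid-tissue comparison held more than 2 calls, and blood at 3 h, where 6.6% of all genes were called, held 3. At 1 h, 1 of the 17 was called in each of heart, kidney and lung, beside 1.33%, 3.12% and 5.8% of all genes. At 3 h, 1 was called in heart and 1 in liver (3.33% and 3.85% of all genes). Kidney and lung held 2 each at 3 h (6.39% and 11.6% of all genes). Impact, an inhibitor of the kinase GCN2, rose in kidney at 1 h (0.40 ± 0.10, adjusted p = 0.0342) and 3 h (0.56 ± 0.10, adjusted p = 0.00134). Eif2b3, a subunit of the eIF2 exchange factor, rose at 3 h in heart (0.52 ± 0.13, adjusted p = 0.0241), liver (0.87 ± 0.22, adjusted p = 0.0218) and lung (0.49 ± 0.10, adjusted p = 0.00275), and the eIF2 beta subunit gene Eif2s2 in kidney (0.24 ± 0.07, adjusted p = 0.0296) and lung (0.27 ± 0.07, adjusted p = 0.0182). The adaptor gene Nck1 fell at 1 h by 0.53 in heart (SE 0.11, adjusted p = 0.0145) and by 0.59 in lung (SE 0.11, adjusted p = 9.00e-04). The kinase genes Eif2ak1, Eif2ak3 and Eif2ak4 were called in no comparison, and Eif2ak2 only in blood at 3 h, where it fell by 1.32 (SE 0.34, adjusted p = 0.0248). Ppp1r15b, the constitutive partner of the same phosphatase, and Eif2s1 also changed in blood at 3 h, by -1.62 ± 0.42 (adjusted p = 0.0259) and -1.12 ± 0.33 (adjusted p = 0.0464).

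The neighbouring arm of the unfolded protein response, driven by ATF6 and XBP1, was called in at most 2 of 16 measured genes in any solid-tissue comparison. Those were liver (3.85% of all genes) and lung (11.6%) at 3 h. Kidney held 1 call at 1 h (3.12%) and 1 at 3 h (6.39%), liver 1 at 6 h (0.223%) and lung 1 at 1 h (5.8%). Edem1, of glycoprotein degradation, rose in liver at 3 h (1.26 ± 0.18, adjusted p = 1.47e-04) and 6 h (1.07 ± 0.23, adjusted p = 0.0353) and in lung at 1 h (0.66 ± 0.12, adjusted p = 9.26e-04) and 3 h (0.63 ± 0.12, adjusted p = 8.91e-04). Dnajb9, a co-chaperone, rose in kidney at 1 h (0.62 ± 0.14, adjusted p = 0.0150) and 3 h (1.03 ± 0.14, adjusted p = 5.77e-05), and Atf6 itself in liver at 3 h (0.37 ± 0.10, adjusted p = 0.0355). Sel1l rose in lung at 3 h (0.38 ± 0.12, adjusted p = 0.0363). The chaperone genes Hspa5, Hsp90b1, Calr and Pdia4 were called in no comparison. In blood at 3 h (6.6% of all genes) 3 of the 16 fell and all 16 estimates were negative. The 3 were Syvn1 (-1.92 ± 0.50, adjusted p = 0.0255), Edem1 (-1.75 ± 0.42, adjusted p = 0.0188) and Sdf2l1 (-1.26 ± 0.32, adjusted p = 0.0245). Edem1 thus fell in blood while it rose in liver and lung.

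Of 8 mitochondrial chaperones and proteases, 2 rose in lung at 3 h, where 11.6% of all genes were called, the chaperone Hspa9 (0.46 ± 0.08, adjusted p = 5.48e-04) and the protease Lonp1 (0.43 ± 0.12, adjusted p = 0.0201). None was called in brain, heart, kidney or liver. In blood the chaperonin gene Hspd1 fell by 1.30 at 3 h (SE 0.31, adjusted p = 0.0193), and the protease gene Yme1l1 was higher by 2.97 ± 0.41 at 6 h (adjusted p = 0.00366). That value rests on 1 air sample, whose spread is taken from the other groups.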

How the data were processed

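RNA from 5 solid tissues and blood was measured on Affymetrix rat 3′ arrays. The deposited values are on the log2 scale, computed by the authors with RMA in Partek, per the submitters' processing notes; versions, and whether tissues were normalized together, are not given in the sources used here. They ran from 1.74 to 14.13. Of 31139 probe sets, 97 were controls, 19063 named 1 gene, 572 several and 11407 none; the probe set brightest on average over the 174 arrays stood for each of 13438 genes (3985 had several).

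A separate model per tissue (limma 3.58.1, R 4.3.3) held a mean per exposure and time, and phosphine was tested against air at each time. Differences of the response between times, and between solid tissues in 1 fit, used moderated F tests. P-values were adjusted by Benjamini-Hochberg over all genes, and a call is an adjusted p under 0.05. An array gives no read depth, so the number of arrays limits the precision. Each array is a separate rat of its group per the labels.

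The members and lists were chosen with earlier results of these data known. All 10 members are given, with every array for up to 3 called members per comparison, and the 3 genes most like each member. Up to 3 called genes of each other list are given per comparison, with Herpud1 besides in kidney at 1 h and lung at 3 h. Alternatives covered normalization, dim genes, probe sets, variance model, array weights, samples in the fit, pooled air, arrays with markers of another organ, the rat as a block and each rat left out. Groups compared share no rats, so the rat pairs only tissues; its arrays had a consensus correlation of 0.0268. Figures were drawn with matplotlib 3.10.9.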

Additional observations from a re-analysis of the deposited data

Results flagged for a closer look

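Dixon's criterion was applied to 400 sets, each holding 1 member in 1 group of 4 to 10 samples. In 25 of them 1 rat lay far from the rest of its group, a share of 6.25%, where chance gives about 1 in 20. The sets share rats and are not independent. In kidney these were Asns in phosphine Rat712 at 1 h (6.19), Cebpb in phosphine Rat728 at 3 h (8.62), Trib3 in air Rat732 at 3 h (3.70) and Ddit3 in air Rat745 at 24 h (6.89). In heart they were Cebpb in phosphine Rat761 at 6 h (9.14), Atf5 in phosphine Rat741 at 24 h (8.75), Asns in phosphine Rat748 at 24 h (4.0), Ddit3 in air Rat727 at 1 h (7.62), Ppp1r15a in air Rat738 at 3 h (7.56) and Cebpb in air Rat751 at 24 h (7.88). In lung they were Atf5 in phosphine Rat716 at 1 h (8.19), Ppp1r15a in phosphine Rat729 at 3 h (6.91), Chac1 in phosphine Rat748 at 24 h (4.66) and Atf5 in air Rat751 at 24 h (7.67).

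In liver the values apart were those of Psat1 in phosphine Rat710 at 1 h (6.37), Ddit3 in phosphine Rat730 at 3 h (5.60), and Atf4 (10.14) and Ppp1r15a (5.19) in phosphine Rat742 at 24 h. In brain they were Atf4 (9.92) and Asns (7.79) in phosphine Rat728 at 3 h and Trib3 in air Rat750 at 24 h (3.64). In blood at 3 h they were Ddit3 in phosphine Rat729 (7.13), Cebpb in air Rat739 (7.57), Atf5 in air Rat732 (8.23) and Psat1 in air Rat738 (5.03). The 2 phosphine arrays on which Atf5 stood high, the lung of Rat716 and the heart of Rat741, also carried hepatocyte markers 7.81 and 7.89 log2 units above the median of their tissue, and Atf5 was highest in liver among the tissues of air rats; the part of those transcripts was not tested.

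The response differed between times by limma's moderated F test for Ppp1r15a in heart (adjusted p = 0.0496), for Atf4 (2.04e-04), Ddit3 (6.08e-04), Cebpb (0.0265) and Ppp1r15a (0.0334) in kidney, and for Cebpb (0.0238) and Ppp1r15a (0.0448) in lung. Between solid tissues it differed at 1 h for Ddit3 (adjusted p = 0.0188), Sesn2 (0.0330), Ppp1r15a (0.0356) and Atf4 (0.0367), and at 3 h for Ddit3 (2.92e-07), Atf4 (1.20e-06), Cebpb (0.0198) and Ppp1r15a (0.0403).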

How the results depend on the processing

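No called change of a member turned its direction under any alternative run. Counts of calls per tissue were 1 in brain, 4 in heart, 8 in kidney, 0 in liver, 4 in lung and 0 in blood. Only the larger shifts of a count are named in this paragraph, so a count left out can still have changed by less. Ddit3 in heart at 1 h, for example, was also called without the arrays with another organ's markers (adjusted p = 0.0454). With array weights they became 2 in brain and 1 in liver, and with air pooled over times 2 in brain, 14 in kidney and 3 in liver; 1 of the 14, Sesn2 at 6 h (-0.55), was lower. With only the groups compared in the fit, brain had 0. With 1 fit of all solid tissues, without a block (an alternative chosen after seeing the data) or with the rat as a replicate block, brain had 0, heart 8 and liver 4. Differences between times in heart (1 member) became 0 with quantile normalization, median centring or the mean of probe sets, 2 without the arrays with another organ's markers, 3 with array weights and 5 in the 1-fit settings, with or without the replicate block. In lung (2 members) they became 1 with median centring, without those arrays and in both 1-fit settings. In liver (0 members) they became 1 without the block and 2 with the replicate block, and in blood (0 members) 1 with array weights. Differences between tissues became 2 at 1 h (4 members) with quantile normalization or median centring, and 2 at 6 h (0 members) with array weights.

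Leaving out each rat in turn gave 0 to 2 calls in brain, 2 to 5 in heart, 7 to 10 in kidney, 0 to 2 in liver and 4 to 6 in lung. Brain had 2 without Rat728 and 0 without Rat712, Rat716, Rat719, Rat721, Rat726, Rat727, Rat729, Rat731 or Rat742. Heart had 2 without Rat712, Rat719, Rat721 or Rat726. Liver had 2 without Rat728 and 1 without Rat727 or Rat751. Differences between times ranged over 0 to 1 in heart, 2 to 6 in kidney and 1 to 3 in lung, and between tissues over 0 to 4 at 1 h and 2 to 5 at 3 h. The causes were not tested. Blood at 6 h could not be fitted without its only air rat.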
